A study of Homo sapiens with 12 samples.

Results

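The genes that encode core Mediator, RNA polymerase II (Pol II) and its general initiation factors were followed across cells that gained or lost MED12, a subunit of Mediator's kinase module. The members were the measured genes with a row of 1 gene symbol named MED and a number (without MED12, MED12L, MED13 and MED13L, which belong to the kinase module), POLR2 and a letter from A to L, GTF2, or TAF and a number. There were 59 such genes among 14232 genes with a row of 1 symbol, each with exactly 1 row, so no choice between rows was needed. The cells were HEK293, a line established from human embryonic kidney, and 12 arrays covered 4 groups with 3 biological replicates each. The control group received nuclear GFP in the vector pcDNA5/TO. In the overexpression groups, full-length MED12, or MED12 lacking the PQL/Opa domains, was in that same vector with an engineered Kozak sequence and a nuclear GFP tag at its N-terminus. The fourth group received shRNA 5 against MED12, a hairpin made from an H1 promoter in another vector, peGFP-C1, and 0 groups carried a control hairpin. Cells were transfected by lipofection 24 h after plating and harvested 48 h later, and viable GFP-positive cells were sorted for 20 min per sample.

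Mediator is the large complex that carries signals from DNA-bound activators to Pol II. Its head and middle modules contact the polymerase, its tail receives activators, and MED14 is the backbone that joins them. A separable kinase module, to which MED12 belongs, docks on this core and can keep the polymerase from binding it. At the promoter, TFIID (TBP and its TAF partners), TFIIA, TFIIB, TFIIE, TFIIF and TFIIH assemble with Pol II into the preinitiation complex, which TFIIH opens by unwinding the DNA. Most of these are housekeeping genes, which growing cells transcribe throughout.

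The name "general factors" covers most of the 59 genes but not all. By role they were 7 Mediator head, 7 middle and 6 tail subunits, the scaffold MED14, 5 subunits found only in Pol II, 5 shared with Pol I and Pol III, 7 subunits of TFIIA, TFIIB, TFIIE and TFIIF, 3 of the TFIIH core, 10 TAFs of TFIID, and 4 TAF paralogues or TAFs of the SAGA coactivator. The naming rule also took in TAF1A and TAF1B of the Pol I factor SL1, the RNA-binding protein TAF15, and GTF2IRD1, a TFII-I family protein that is not a basal factor. A level yardstick was set at a log2 value of 3.58, the 95th percentile of 220 olfactory receptor rows in the GFP arrays, since most cells do not transcribe those genes. In the GFP group 41 members lay above it and 18 did not. The member means in GFP ran from 2.06 (TAF1A) to 8.25 (POLR2F), but the signal of a row also depends on its probes, so members are compared here only with themselves.

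Promoter windows of 48 of the 59 members were found in RefSeq (GRCh38.p14, 250 bases before to 50 after each gene start, 60 windows). Of the 9 short motifs searched on both strands, CCGGAAG, the core letters of an ETS-family site, differed most from the other genes in percentage points of share: 21 of the 48 members held it (43.8%), against 16.5% of protein-coding genes. By window it was in 41.7% of member windows, against 12.8% of protein-coding windows and 10.3% of all 35116 windows. TATAAA was in 3 of 48 members (6.25%) and in 12.4% of protein-coding genes. CCGGAAG contains GGAA, which 95.8% of members and 96.3% of protein-coding genes held. The other shares, members first and protein-coding genes after them, were 58.3% and 64.3% for GGGCGG, 31.2% and 42.1% for CCAAT, 8.33% and 1.58% for a YY1-type motif of 11 bases, 6.25% and 1.99% for the NRF1-type palindrome of 10 bases, 4.17% and 3.00% for TGACGTCA, and 8.33% and 4.16% for an interferon-response-type repeat of 10 bases. As a ratio of shares, the YY1-type and NRF1-type motifs differed more than CCGGAAG did, each in few members. A match is a string of letters and not evidence that a factor binds. The median member window held 24 CG dinucleotides and the median protein-coding window 21. The stretches below are upstream of genes the results return to, 5′ to 3′ on the gene's strand, with the motif in capitals. GTF2B is shown for its TATAAA, which begins 29 bases before the start, and the others for CCGGAAG or its reverse complement CTTCCGG.
GTF2B, chr1:88891568-88891617, minus strand: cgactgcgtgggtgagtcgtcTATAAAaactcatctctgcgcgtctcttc
POLR2F, chr22:37953638-37953687, plus strand: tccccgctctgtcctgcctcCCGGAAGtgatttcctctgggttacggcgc
GTF2F1, chr19:6393183-6393232, minus strand: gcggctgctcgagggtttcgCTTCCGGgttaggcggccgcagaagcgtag
TAF12, chr1:28643068-28643117, minus strand: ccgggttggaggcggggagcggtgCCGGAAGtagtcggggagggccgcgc
MED31, chr17:6651606-6651655, minus strand: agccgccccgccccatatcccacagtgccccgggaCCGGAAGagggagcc
TAF1B, chr2:9843424-9843473, plus strand: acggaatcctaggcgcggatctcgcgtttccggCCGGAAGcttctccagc
The 21 members with CCGGAAG and the 27 whose windows lack it had median log2 fold changes against GFP of 0.10 and 0.10 with full-length MED12, -0.02 and 0.10 with the PQL/Opa-deleted construct, and -0.04 and -0.10 with the shRNA. No test was made of these medians.

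The MED12 row follows the group labels. Its log2 values were 4.03, 4.56 and 4.66 in GFP, 10.63, 10.66 and 10.75 with full-length MED12, and 8.62, 8.90 and 9.25 with the PQL/Opa-deleted construct. With the shRNA they were 3.63, 3.63 and 3.74, below all 3 GFP arrays, but that difference of -0.75 did not pass the limma test (adjusted p = 0.730). Which part of MED12 the row's probes cover is not given in the sources used here. Of the 10 HEK293 marker genes fixed for a check of identity, 9 lay above the yardstick, against 0 of 4 blood, 0 of 5 endothelial, 1 of 4 fibroblast (COL1A1) and 1 of 4 hepatocyte (APOA1) markers. These are bulk samples, in which fewer cells transcribing a gene and less RNA per cell cannot be told apart.

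No member passed the limma test in any comparison. The count was 0 of 59 for full-length MED12 against GFP, for the PQL/Opa-deleted construct against GFP, for the shRNA against GFP, for full-length against PQL/Opa-deleted MED12, and in the F test over the 4 groups. The adjustment ran over all 22011 rows with a threshold of 0.05, and the shares of all rows that passed were 0.0136%, 0.00454%, 0.0681%, 0.00454% and 0.0863% in that order. At an unadjusted p under 0.05 the member counts were also 0 in all 4 comparisons and in the F test, where 2.8%, 3.46%, 5.04%, 1.9% and 4.62% of all rows passed. The lowest unadjusted p of any member was 0.0544 (GTF2B with the shRNA) and the lowest of the F test was 0.0571 (MED8), both limma values. These counts and p come from the fit without a replicate block. With the replicate number as a block, 0, 4, 3, 0 and 6 members had an unadjusted limma p under 0.05, in the same order. The shares of all rows in that fit were 5.28%, 6.35%, 8.97%, 3.37% and 9.56%.

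The 95% intervals, each unadjusted for the number of rows tested, give the range of change that a member's values allow. The median standard error of a member's log2 fold change was 0.25, and the median 95% interval reached 0.55 to either side, slightly wider than the 0.50 of all rows. With full-length MED12, 49 of the 59 intervals lay inside a 2-fold change in both directions, and 18 inside a 1.5-fold change. The corresponding counts were 48 and 16 with the PQL/Opa-deleted construct, 45 and 14 with the shRNA, and 47 and 15 between the constructs. They do not mark the limit of detection, because calls were made after adjustment over all rows and a change beyond an interval's reach can also go uncalled. The MED12 difference with the shRNA, for example, had an interval of -1.18 to -0.31 and did not pass.

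**Figure D1:**
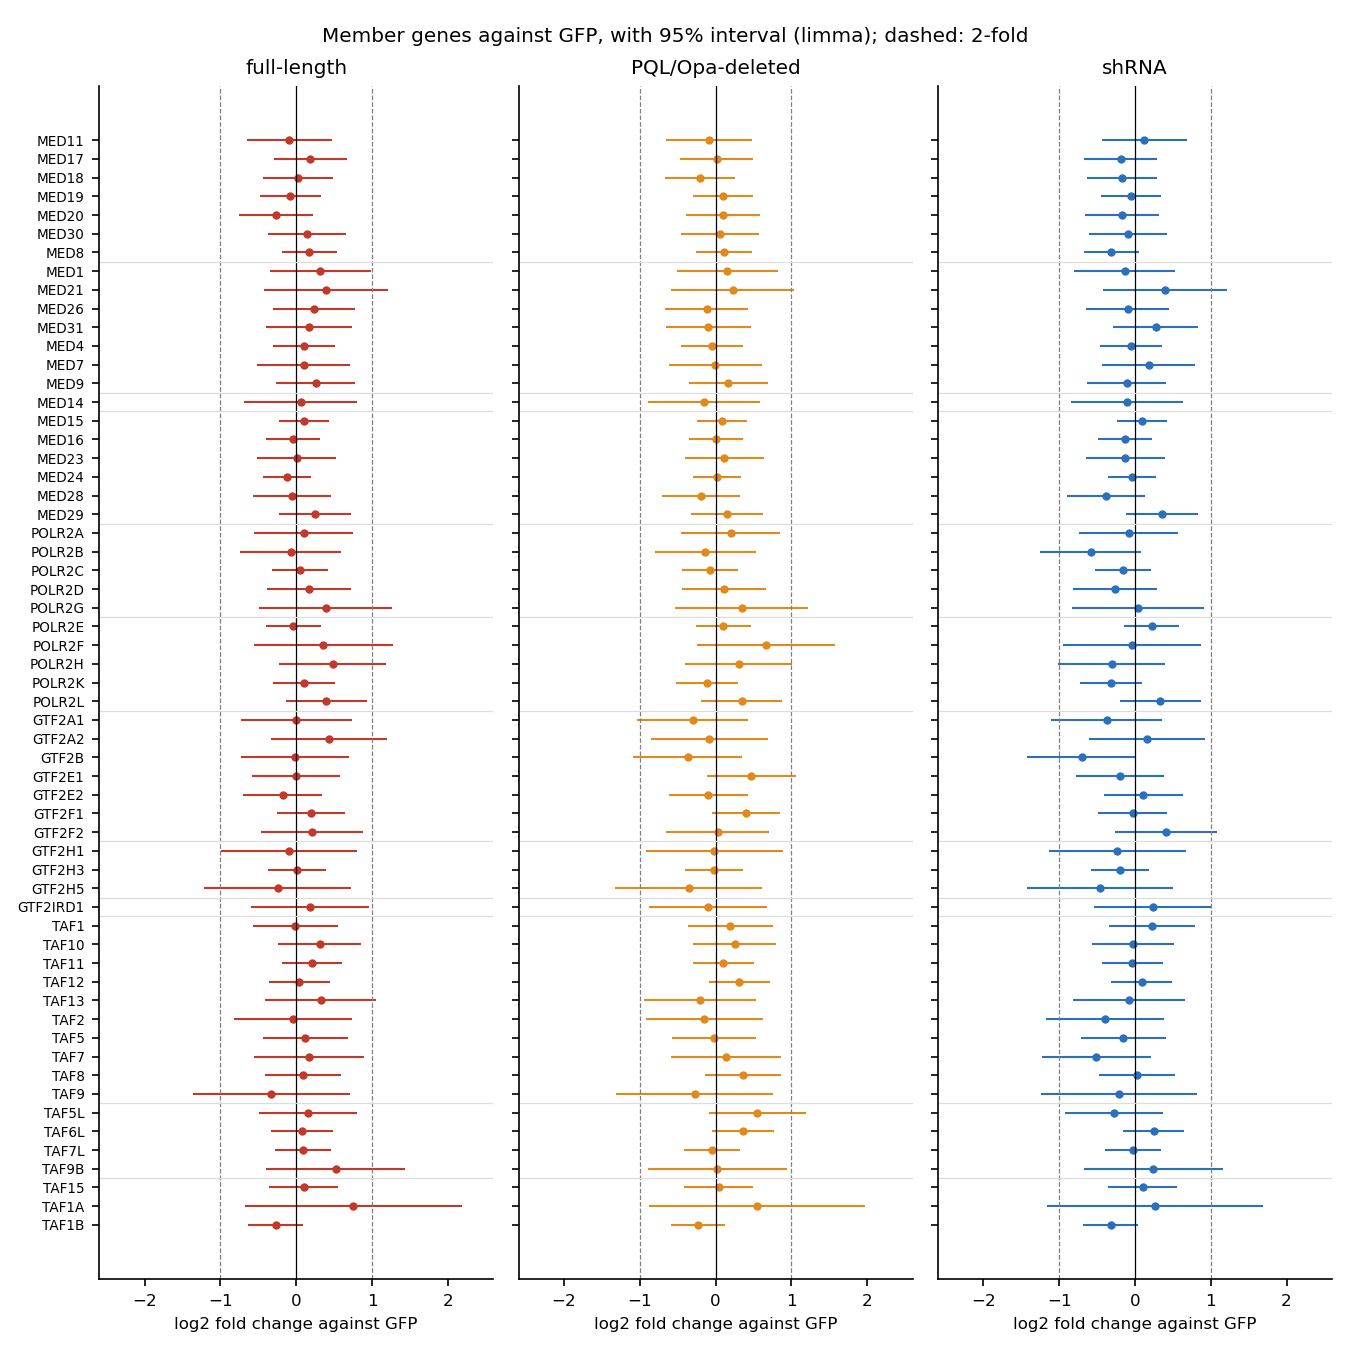
Log2 fold change of each of the 59 member genes against GFP (points) with its 95% interval from limma (lines), for full-length MED12, the PQL/Opa-deleted construct and the shRNA. Genes are ordered by role with thin lines between roles, dashed lines mark a 2-fold change, and every interval that leaves the dashed band also includes 0.

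With full-length MED12, 42 members lay above GFP and 17 below, with a median log2 fold change of 0.10, against -0.01 over all rows, of which 48.6% lay above. The member values ran from -0.33 (TAF9, a histone-fold TAF) to 0.75 (TAF1A, a subunit of SL1 that lay below the yardstick). All 7 Mediator middle subunits with a row of their own lay above GFP (median 0.24, from 0.10 to 0.40), and so did 4 of the 5 subunits shared by the polymerases (median 0.36). Of the middle subunits' rows shared with other symbols, that of MED10 was at -0.03 and that of MED31 at 0.62. MED19, which the role list used here counts with the head, was at -0.08. In 3 members the full-length arrays did not overlap the GFP arrays, a share of 5.08% against 7.72% of all rows: MED31 and TAF10 were on the high side and MED20 on the low side. Without GFP replicate 1 the member median became -0.01.

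With the PQL/Opa-deleted construct, 34 members lay above GFP and 25 below, with a median of 0.03 (all rows -0.01, 48.4% above). The range was -0.37 (GTF2B) to 0.66 (POLR2F). Groups did not overlap in 4 members, 6.78% against 7.92% of all rows: GTF2F1, TAF12 and TAF6L were on the high side and TAF1B on the low side. Without GFP replicate 1 this median became -0.06.

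With the shRNA, 20 members lay above GFP and 39 below, with a median of -0.08, while the median of all rows was 0.02 with 54.4% above. The range was -0.70 (GTF2B) to 0.41 (GTF2F2). Of the Mediator head subunits 6 of 7 lay below GFP (median -0.17), as did 4 of the 5 subunits found only in Pol II (median -0.16) and 3 of 3 TFIIH core subunits (median -0.23). Of these TFIIH genes, GTF2H3 and GTF2H5 lay below the yardstick. A row that GTF2H4, also of the TFIIH core, shares with another symbol lay above GFP, at 0.10. The Mediator middle subunits were divided, 3 of 7 above GFP (median -0.05), as were the TFIID TAFs, 3 of 10 above (median -0.06). Of the TAF paralogues and SAGA TAFs 2 of 4 lay above (median 0.11), and of the SL1 TAFs with TAF15 2 of 3 (median 0.10). Groups did not overlap in 5 members, 8.47% against 8.56% of all rows: MED31, POLR2E and TAF12 were on the high side and MED8 and POLR2K on the low side. Without shRNA replicate 1 the median was 0.06, and without GFP replicate 3 it was 0.00.

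In this comparison, and in the F test, the count depended on a setting. When limma estimated a weight for each array, 13 members passed, 8 lower and 5 higher than GFP, among them GTF2B, POLR2B, POLR2H and MED8 on the low side and POLR2E and GTF2F2 on the high side. Under the same weights 25.9% of all rows passed in this comparison. In the F test with those weights 12 of the 59 members passed, beside 28.9% of all rows. Neither count was above the share of the whole file. The estimated weight was 8.77 for shRNA replicate 3, against 0.289 and 0.419 for the other shRNA arrays and 0.287 to 3.31 over all other arrays.

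Between the constructs, 39 members lay higher with full-length than with PQL/Opa-deleted MED12 and 20 lower (median 0.06, all rows -0.00, 49.7% above). All 7 Mediator middle subunits with a row of their own were on the full-length side (0.09 to 0.35). Of the middle subunits' rows shared with other symbols, that of MED10 was at -0.04 and that of MED31 at 0.25. MED19, counted here with the head, was at -0.18. Groups did not overlap in 4 members, 6.78% against 6.91% of all rows: GTF2A2 and TAF13 were higher and MED20 and TAF6L lower with full-length MED12. The median was -0.04 without PQL/Opa-deleted replicate 1 and -0.02 with array weights. The comparisons with GFP share the same 3 control arrays, and the comparison of the constructs reuses their arrays, so a pattern that recurs between comparisons is not separate evidence and no overlap between them is given.

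The position of the members as a whole moved with 3 arrays. GFP replicate 1, PQL/Opa-deleted replicate 1 and shRNA replicate 1 had the narrowest spread of all rows (SD 1.40, 1.45 and 1.34, against 1.47 to 1.60 in the other 9). Of the 59 members, 41 had their lowest value of the 12 arrays in one of these 3 (22 of them in the shRNA array, 14 in the GFP array and 5 in the PQL/Opa-deleted array), against 33.0% of all rows and 52.0% of rows above the yardstick. Of members above the yardstick the count was 32 of 41, and of the others 9 of 18, where the share of all rows not above the yardstick was 18.4%.

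The median member, as its log2 value minus its GFP mean, stood at -0.24, 0.09 and 0.14 in the GFP arrays. It was 0.03, 0.14 and 0.17 with full-length MED12, -0.13, 0.14 and 0.13 with the PQL/Opa-deleted construct, and -0.36, 0.09 and 0.01 with the shRNA. The group means were -0.00 ± 0.21, 0.11 ± 0.08, 0.05 ± 0.16 and -0.09 ± 0.24 (SD, n = 3), so every group overlapped every other. The low values were in replicate 1 of 3 groups, and no full-length array was among them. With those 3 arrays left out, the median log2 fold changes against GFP were -0.01, 0.02 and -0.05. That refit drops GFP replicate 1 but keeps full-length replicate 1. Between arrays of the same number, which the labels do not call pairs, the full-length median lay above the GFP median in 3 of 3. In replicates 2 and 3 it was 0.14 against 0.09 and 0.17 against 0.14. The pooled SD of the array medians within groups was 0.18. By the same reading, the PQL/Opa-deleted and shRNA medians lay on both sides of GFP. What set the spread of these arrays was not tested.

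**Figure D2:**
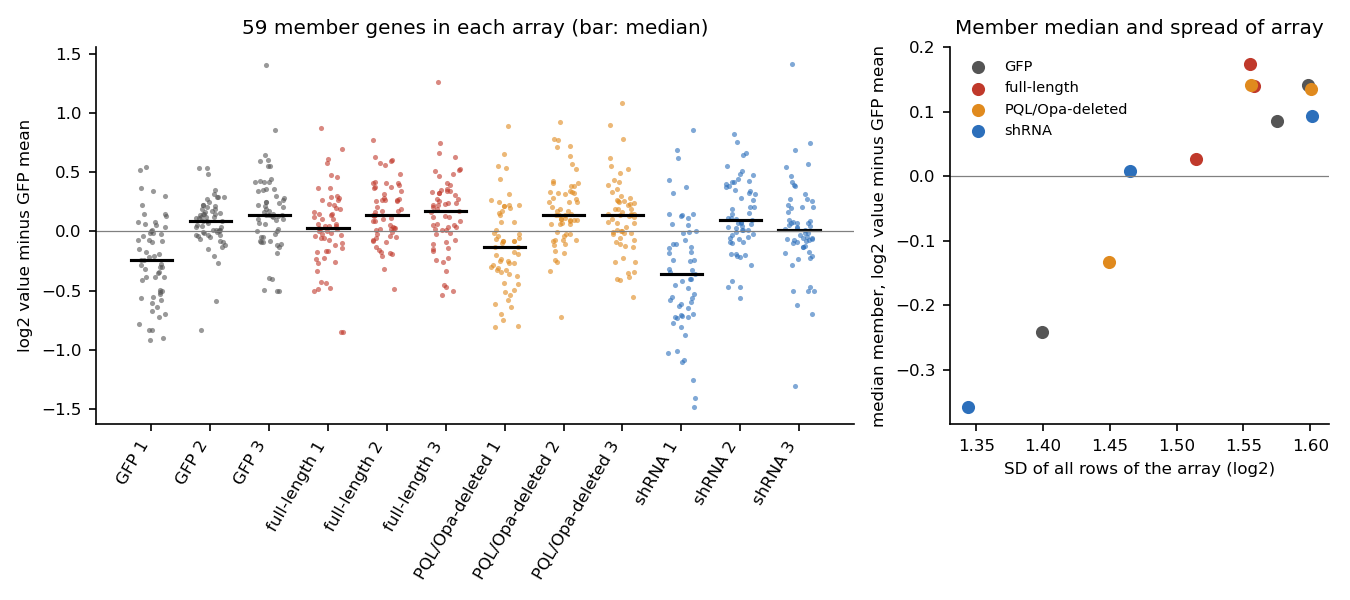
Left, log2 value minus the GFP mean of the 59 member genes in each of the 12 arrays (points) with their median (bar). Right, that median against the standard deviation of all rows of the array, with 1 point per array coloured by group: the arrays GFP 1, PQL/Opa-deleted 1 and shRNA 1, at the narrow end, have medians of -0.24, -0.13 and -0.36.

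Among the Mediator head subunits, MED8, which anchors the pair MED18 and MED20 to the rest of the head, had the lowest F-test p of all members. Its log2 values were 3.44, 3.69 and 3.45 in GFP, 3.79, 3.66 and 3.65 with full-length MED12, 3.46, 3.93 and 3.52 with the PQL/Opa-deleted construct, and 3.35, 3.24 and 3.06 with the shRNA. The 3 shRNA arrays were the lowest of the 12, and the log2 fold change was -0.31 (95% interval -0.67 to 0.05, adjusted p = 0.999). MED8 lay just below the yardstick.

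MED20 gave 3.99, 3.81 and 3.74 in GFP and 3.62, 3.53 and 3.59 with full-length MED12, a difference of -0.27 (interval -0.76 to 0.23). Its values were 4.29, 3.77 and 3.78 with the PQL/Opa-deleted construct and 3.99, 3.88 and 3.15 with the shRNA. The full-length arrays lay below all GFP and PQL/Opa-deleted arrays, while the shRNA arrays spread across all of them. MED17, the architectural subunit of the head, had values of 3.642, 3.996 and 4.016 in GFP and 3.27, 3.99 and 3.84 with the shRNA (-0.19, interval -0.67 to 0.30). The lowest value of each of these groups was in replicate 1, and the groups overlapped.

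In the middle module, MED1, the subunit that nuclear receptors bind, read 3.85, 4.54 and 4.82 in GFP and 4.67, 4.56 and 4.93 with full-length MED12, a difference of 0.32 (interval -0.35 to 0.98). The groups overlapped, and GFP replicate 1 was the lowest of these 6 arrays. MED21 had the largest differences of the middle module, 0.40 with full-length MED12 (interval -0.42 to 1.21), 0.23 with the PQL/Opa-deleted construct and 0.40 with the shRNA. Its GFP values of 3.69, 4.28 and 5.27 alone spanned the whole range of the 12 arrays.

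MED31 was the middle subunit whose arrays separated: 4.95, 4.81 and 4.91 in GFP against 5.17, 5.03 and 4.97 with full-length MED12 and 4.95, 5.44 and 5.10 with the shRNA. The lowest shRNA array cleared the highest GFP array by less than the second decimal, and the differences were 0.17 (interval -0.39 to 0.73) and 0.27 (interval -0.29 to 0.84). A further row that MED31 shares with other symbols had log2 fold changes of 0.62 with full-length MED12, 0.37 with the PQL/Opa-deleted construct and -0.19 with the shRNA, the last opposite in sign to MED31's own row. MED26, which can hand elongation factors to the polymerase, gave 3.45, 3.06 and 3.47 in GFP, 3.69, 3.61 and 3.38 with full-length MED12 and 3.14, 3.43 and 3.07 with the PQL/Opa-deleted construct. The difference between the constructs was 0.35 (interval -0.19 to 0.90), and their arrays overlapped. MED26 lay below the yardstick.

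MED14, the scaffold, read 4.82, 5.43 and 5.78 in GFP and 5.37, 5.46 and 5.38 with full-length MED12 (0.06, interval -0.68 to 0.80). It read 4.59, 5.48 and 5.49 with the PQL/Opa-deleted construct (-0.15) and 4.62, 5.82 and 5.28 with the shRNA (-0.10). Replicate 1 was the lowest array in each of the 4 groups. The sign of the full-length difference turned under quantile normalization (-0.03), and it was -0.21 without the 3 narrow arrays.

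Of the tail subunits, MED24 and MED15 had the smallest spread within groups of all 59 (SD 0.116 and 0.134, pooled over the 4 groups), and their intervals excluded a 1.5-fold change in all 3 comparisons with GFP. MED15, which binds lipid-regulating activators, read 3.84, 4.09 and 4.12 in GFP, 4.16, 3.97 and 4.22 with full-length MED12, 3.93, 4.20 and 4.16 with the PQL/Opa-deleted construct, and 3.998, 4.20 and 4.11 with the shRNA. Its differences from GFP were 0.11, 0.09 and 0.09. The largest tail values were those of MED28 (-0.38, interval -0.89 to 0.14) and MED29 (0.36, interval -0.11 to 0.84) with the shRNA, of opposite sign. MED29 lay below the yardstick.

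Of the subunits found only in Pol II, POLR2A, the catalytic subunit with the C-terminal repeat tail, read 4.65, 5.17 and 5.31 in GFP, 4.98, 5.07 and 5.37 with full-length MED12, 4.70, 5.36 and 5.66 with the PQL/Opa-deleted construct, and 4.44, 5.44 and 4.99 with the shRNA. The differences were 0.10, 0.20 and -0.08, with intervals of -0.55 to 0.75, -0.46 to 0.85 and -0.74 to 0.57, and all 4 groups overlapped. POLR2B, its partner in the active centre, read 5.42, 6.20 and 6.17 in GFP and 4.83, 5.90 and 5.31 with the shRNA. That difference of -0.59 (interval -1.25 to 0.08, adjusted p = 0.999) was the largest of the Pol II genes with the shRNA, and the groups still overlapped. POLR2G, of the polymerase stalk, was low in GFP replicate 1 (3.49, against 4.72 and 5.00 in the other GFP arrays), and its full-length difference of 0.39 was -0.07 without that array.

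The subunits shared with Pol I and Pol III included the largest difference with the PQL/Opa-deleted construct. POLR2F read 7.42, 8.79 and 8.55 in GFP and 8.57, 9.03 and 9.15 with the PQL/Opa-deleted construct (0.66, interval -0.25 to 1.58). It read 8.30, 8.66 and 8.88 with full-length MED12 (0.36) and 7.45, 9.07 and 8.12 with the shRNA (-0.04). GFP replicate 1 and shRNA replicate 1 were more than 2-fold below the other GFP arrays of POLR2F, and the groups overlapped.

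POLR2H read 4.40, 5.72 and 5.43 in GFP and 5.35, 5.81 and 5.85 with full-length MED12 (0.48, interval -0.22 to 1.19). POLR2K was among the shRNA members without overlap, at 5.13, 5.07 and 5.03 in GFP and 4.75, 4.98 and 4.57 with the shRNA (-0.31, interval -0.72 to 0.10). POLR2E was on the other side, at 4.21, 4.25 and 4.38 in GFP and 4.42, 4.39 and 4.70 with the shRNA (0.22, interval -0.14 to 0.59). Subunits of the same enzyme thus had differences of opposite sign in this comparison, each within its interval of 0.

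GTF2B encodes TFIIB, which bridges the TBP-bound promoter and the polymerase, and its TATAAA-containing promoter is shown above. Its log2 values were 6.47, 6.14 and 5.69 in GFP, 6.08, 6.58 and 5.59 with full-length MED12, 5.40, 6.03 and 5.76 with the PQL/Opa-deleted construct, and 5.52, 5.88 and 4.79 with the shRNA. Replicates within each group ranged widely and all groups overlapped. The differences from GFP were -0.02 (interval -0.73 to 0.70), -0.37 (interval -1.09 to 0.35) and -0.70 (interval -1.42 to 0.02, adjusted p = 0.996). Within the GFP group GTF2B was highest in replicate 1.

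GTF2F1, a subunit of TFIIF, which escorts Pol II to the promoter, read 4.32, 4.70 and 4.61 in GFP and 4.81, 4.93 and 5.09 with the PQL/Opa-deleted construct. The groups did not overlap, and the difference was 0.40 (interval -0.05 to 0.85, adjusted p = 1.00). Its partner GTF2F2 read 3.01, 3.57 and 4.19 in GFP and 3.09, 3.92 and 3.83 with that construct, a difference of 0.03. With the shRNA GTF2F2 read 3.59, 4.25 and 4.16 (0.41, interval -0.27 to 1.09), which was the largest positive shRNA difference of any member.

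GTF2E1, of TFIIE, the factor that brings TFIIH to the complex, read 3.41, 3.62 and 2.76 in GFP and 4.15, 3.67 and 3.39 with the PQL/Opa-deleted construct (0.47, interval -0.11 to 1.06), and lay below the yardstick. GTF2A2, a subunit of TFIIA, read 5.07, 4.63 and 4.72 with full-length and 3.93, 4.43 and 4.51 with PQL/Opa-deleted MED12. These arrays did not overlap, and the difference was 0.51 (interval -0.25 to 1.28). The GFP arrays, at 3.68, 4.51 and 4.92, overlapped both.

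Of the TFIIH core, which opens promoter DNA and also serves in DNA repair, GTF2H1, GTF2H3 and GTF2H5 had differences of -0.09, 0.01 and -0.24 with full-length MED12, -0.02, -0.02 and -0.35 with the PQL/Opa-deleted construct, and -0.23, -0.20 and -0.46 with the shRNA. GTF2H3 and GTF2H5 lay below the yardstick. GTF2H5 was among the least reproducible members (SD 0.626 within groups), and its shRNA values were 2.09, 3.36 and 3.89. Its shRNA difference turned positive under array weights (0.24) and without the 3 narrow arrays (0.09).

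Within TFIID, TAF1, its largest subunit and scaffold, read 3.45, 3.51 and 4.02 in GFP, 3.18, 3.60 and 4.17 with full-length MED12, 3.58, 3.80 and 4.19 with the PQL/Opa-deleted construct, and 3.79, 3.94 and 3.93 with the shRNA. The groups overlapped, and the differences were -0.01, 0.20 and 0.23. TAF10, a histone-fold TAF that also sits in SAGA, read 5.10, 5.38 and 5.55 in GFP and 5.71, 5.60 and 5.65 with full-length MED12. The full-length arrays were all above the GFP arrays, by 0.31 on average (interval -0.23 to 0.86).

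TAF12, another histone-fold TAF shared with SAGA, was tightly grouped in GFP at 3.59, 3.60 and 3.57. It read 4.13, 3.84 and 3.72 with the PQL/Opa-deleted construct (0.31, interval -0.09 to 0.71), 3.64, 3.74 and 3.64 with the shRNA (0.09) and 3.32, 4.004 and 3.56 with full-length MED12 (0.04). The separation from GFP with the shRNA was thus by small steps. TAF13 read 6.95, 6.35 and 6.67 with full-length and 5.89, 6.22 and 6.28 with PQL/Opa-deleted MED12, without overlap (0.53, interval -0.20 to 1.26), while its GFP arrays, at 5.66, 6.45 and 6.89, overlapped both. TAF7, which binds TAF1, had its lowest array in shRNA replicate 1 at 3.48, while the other shRNA arrays were 4.90 and 4.76 and GFP was 4.48, 5.18 and 5.01 (-0.51, interval -1.23 to 0.22).

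Among the paralogues and SAGA TAFs, TAF6L read 2.99, 3.38 and 3.51 in GFP and 3.83, 3.54 and 3.59 with the PQL/Opa-deleted construct (0.36, interval -0.05 to 0.77), without overlap. In GFP TAF6L lay below the yardstick. TAF5L, of the same coactivator, read 4.15, 3.89 and 3.74 in GFP and 4.08, 4.65 and 4.71 with that construct (0.55, interval -0.09 to 1.19), with overlap. TAF9B, a close paralogue of TAF9, had a full-length difference of 0.52 (interval -0.39 to 1.44), and TAF9 one of -0.33 (interval -1.36 to 0.70). Whether the probes of their rows tell these paralogues apart is not given in the sources used here.

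Of the genes taken in by name, TAF1B of SL1, which recruits Pol I to ribosomal genes, lay below its GFP mean with all 3 plasmids. It read 3.79, 3.70 and 3.95 in GFP, 3.38, 3.76 and 3.47 with full-length MED12, 3.50, 3.55 and 3.67 with the PQL/Opa-deleted construct, and 3.39, 3.34 and 3.74 with the shRNA. The differences were -0.27, -0.23 and -0.32, the last with an interval of -0.68 to 0.04 (adjusted p = 0.999). Since the 3 differences use the same GFP arrays, they are not separate observations. TAF1A, its partner, was the least reproducible member (SD 0.942), with GFP values of 1.49, 1.22 and 3.46.

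**Figure D3:**
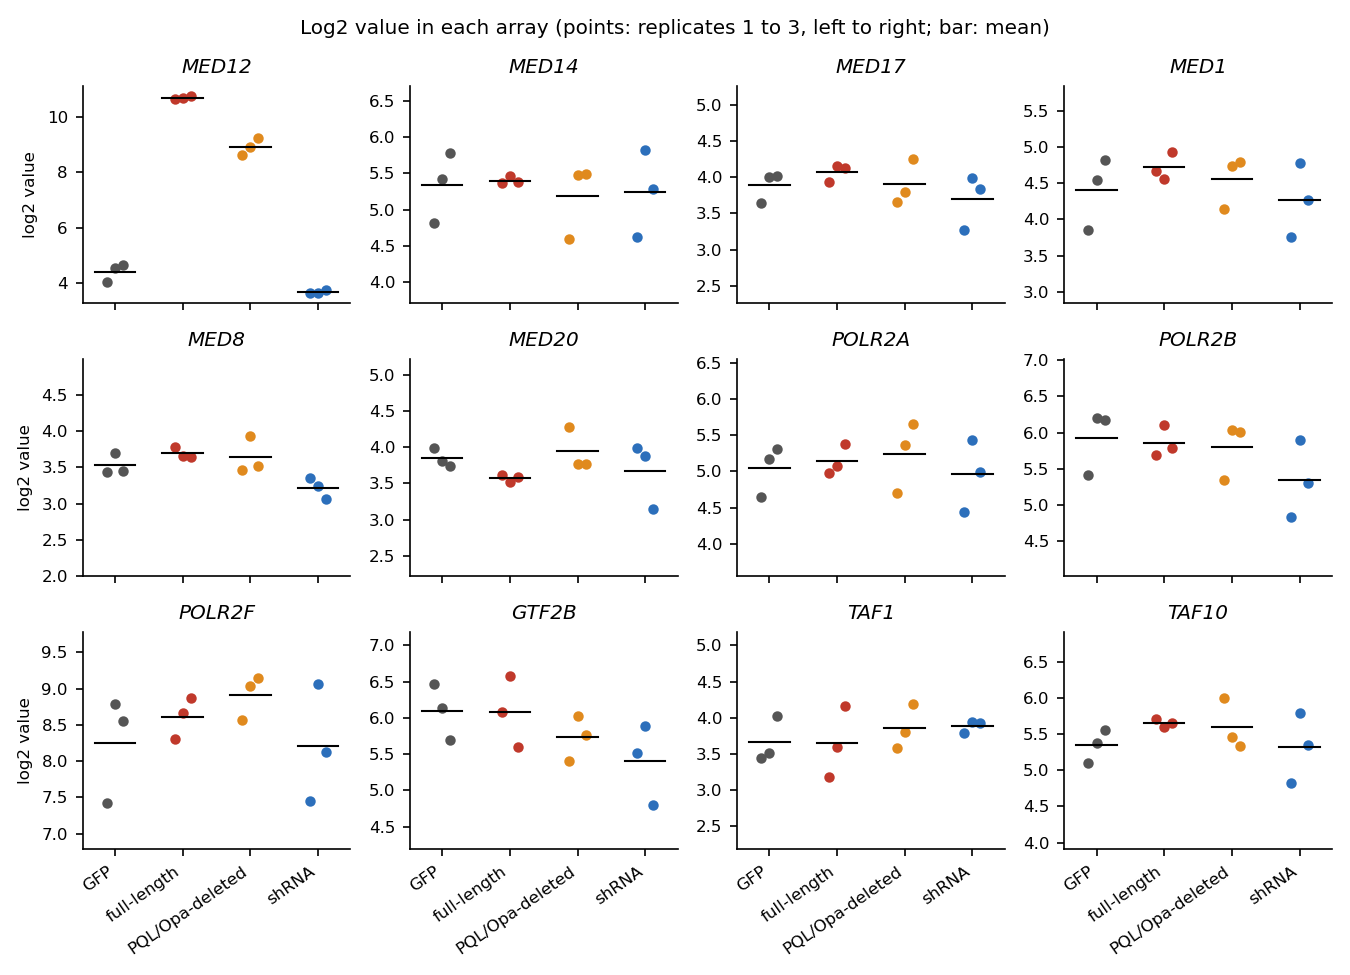
Log2 value of MED12 and of 11 member genes in each array (points, replicates 1 to 3 from left to right in each group) with the group mean (bar). Each panel has its own vertical range. The 4 groups of MED12 are apart, while the groups of MED14, MED17, MED1, POLR2A, POLR2B, POLR2F, GTF2B and TAF1 overlap; MED20 and TAF10 lie apart from GFP with full-length MED12 and MED8 with the shRNA.

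Other genes of the transcription machinery, from lists fixed by role, were read in the same fit. In the kinase module MED12 was the 1 gene of 7 that passed, in both overexpression comparisons and between the constructs. CDK8, its kinase, had differences of 0.17, -0.26 and -0.33 with full-length MED12, the PQL/Opa-deleted construct and the shRNA, and CDK19, the kinase's paralogue, of -0.08, -0.08 and -0.11. Of the TBP family and TFIIH helicases and kinase 0 of 5 passed in any comparison, and 0 of 5 at an unadjusted p under 0.05.

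Of 18 pausing and elongation factors 0 passed. At an unadjusted p under 0.05, 1 of them differed from GFP, LARP7, which holds the 7SK RNA that restrains the elongation kinase, with the shRNA (-0.50, interval -0.95 to -0.04, adjusted p = 0.982). It read 4.11, 4.79 and 4.53 in GFP and 3.98, 4.17 and 3.79 with the shRNA, and the groups overlapped. HEXIM1, its partner in that complex, read 5.66, 5.98 and 6.18 in GFP, 6.34, 6.14 and 6.43 with full-length MED12 (0.36) and 5.05, 5.85 and 5.63 with the shRNA (-0.43), with an F-test p of 0.0313 before adjustment and 1.00 after it.

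Of 8 Pol II assembly and tail phosphatase genes 0 passed, and 0 lay under the unadjusted level. The lowest p belonged to RPRD1B, a protein that binds the polymerase tail, with the shRNA (0.55, interval -0.02 to 1.12) and to SSU72, a tail phosphatase, with full-length MED12 (0.37, interval -0.03 to 0.76). Their adjusted p were 0.996 and 1.00.

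Among 13 subunits that only Pol I or Pol III use, 0 passed. POLR1F, the Pol I stalk subunit, read 4.65, 4.78 and 4.67 in GFP, 5.13, 5.32 and 5.13 with full-length MED12, and 4.30, 4.45 and 4.24 with the shRNA. The full-length arrays were all above GFP and the shRNA arrays all below, by 0.49 (interval 0.16 to 0.82) and -0.37 (interval -0.70 to -0.04). The unadjusted p were 0.00684 and 0.0295, and after adjustment by limma over all rows 1.00 and 0.982, with an adjusted F-test p of 0.296. POLR3G, a Pol III subunit, read 3.96, 4.06 and 2.62 in GFP and 2.44, 2.49 and 2.95 with the PQL/Opa-deleted construct (-0.92, interval -1.82 to -0.02, adjusted p = 1.00), and those groups overlapped.

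These further lists depended on array weights in the same way. With them, and with the shRNA against GFP, 1 of 7 kinase module genes passed (MED12, limma adjusted p = 0.00190), 2 of 5 of the TBP and TFIIH list, 5 of 18 pausing and elongation factors (LARP7 among them, adjusted p = 0.00231), 2 of 8 assembly and phosphatase genes (GPN3, adjusted p = 0.00816, and RPRD1B, adjusted p = 0.0103) and 4 of 13 subunits of Pol I and Pol III (POLR1F among them, adjusted p = 0.00649), where 25.9% of all rows passed. RPRD1B was higher than GFP and the others that passed were lower. In the comparisons of the constructs with GFP and with each other, MED12 was again the 1 gene of these lists that passed with array weights.

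The sign of the members' median depended on single arrays. With full-length MED12 it ran from -0.01 (without GFP replicate 1) to 0.18 (without GFP replicate 3) as each array was left out in turn. With the PQL/Opa-deleted construct it ran from -0.06 (without GFP replicate 1) to 0.13 (without PQL/Opa-deleted replicate 1 or GFP replicate 3). With the shRNA it ran from -0.21 (without shRNA replicate 2) to 0.06 (without shRNA replicate 1), and between the constructs from -0.04 (without PQL/Opa-deleted replicate 1) to 0.12 (without PQL/Opa-deleted replicate 2). The number of members that passed was 0 in each of these refits.

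**Figure D4:**
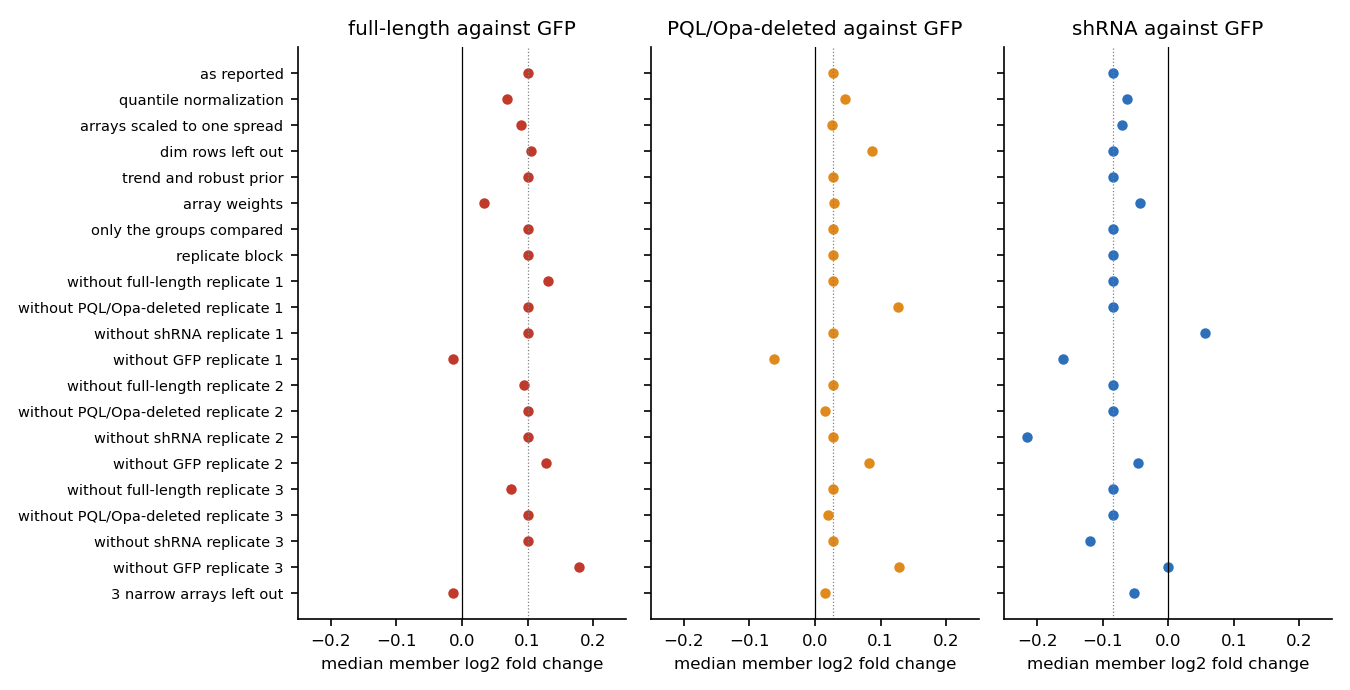
Median log2 fold change of the members (horizontal axis) in each comparison with GFP (panels), as reported (top, dotted line) and under each alternative (rows below). Leaving out GFP replicate 1 takes the full-length median from 0.10 to -0.01, and leaving out shRNA replicate 1 takes the shRNA median from -0.08 to 0.06.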

How the data were processed

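Amplified, biotin-labelled RNA of 12 samples was hybridised to arrays of 1 colour. Their log2 values, as deposited by the authors, were made with Partek and RMA against hg18, per the submitters' processing notes. Versions, probe set level and filters: not given in the sources used here. No step was added to them. Of 22011 rows 14432 have 1 symbol. Precision is limited by how many arrays there are. limma 3.58.1 in R 4.3.3 fitted 4 group means to all arrays (lmFit and eBayes, 8 residual and 3.52 prior degrees of freedom), with two-sided tests and Benjamini-Hochberg adjustment over all rows. Every p and adjusted p given is from limma. With 3 arrays in each group an exact permutation p is at least 0.1, so none was used. The code was checked on simulated data with independent noise, which does not measure how often differences as small as those of the members would be found here.

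The members, role lists, markers and tests were chosen with earlier results of these data known, and the 9 promoter motifs after the fit had been seen. Genes are named by rule: the 5 lowest p per direction in each comparison, the largest difference per role and GFP comparison, the highest and lowest 6 GFP means, hub subunits with MED12, and 1 gene per direction in each further list. Members whose groups did not overlap, and MED15, were named after their values were seen. The labels do not say what a replicate number marks. Deviations of same-numbered arrays correlated at 0.218, 0.101 and 0.229 for full-length MED12 with GFP and at 0.472, 0.149 and 0.378 between PQL/Opa-deleted and GFP arrays, each above the 0.1 that was taken to mark pairs. They correlated at 0.022 to 0.464 for the shRNA with GFP and 0.076 to 0.240 between the constructs, which did not all reach it. The fit with the number as a block was an alternative, and the values in the report come from the fit without it unless another setting is named. Alternatives were quantile normalization, scaling to one spread, a filter on dim rows, a trended robust prior, array weights, only the groups compared, a replicate block, each array left out, and 3 narrow arrays left out.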

Additional observations from a re-analysis of the deposited data

How the results depend on the processing

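The count of members past an adjusted p of 0.05 was 0 in each comparison under all alternatives run except array weights, which gave 13 for the shRNA against GFP, where 25.9% of all rows passed, and 12 in the F test over the 4 groups, where 28.9% did; the cause was not tested. The fit with the replicate number as a block left 0 members called in each comparison and changed no call, with 0, 4, 3 and 0 members at an unadjusted p under 0.05 for full-length MED12, the PQL/Opa-deleted construct and the shRNA against GFP and between the constructs, beside 5.28%, 6.35%, 8.97% and 3.37% of all rows in that fit. In the F test of that fit 6 members were under the same unadjusted level, beside 9.56% of all rows. Each member has 1 row, so averaging the rows of a gene gave no separate value. Over all 59 members, 19, 13 and 11 differences from GFP with full-length MED12, the PQL/Opa-deleted construct and the shRNA turned sign without the 3 narrow arrays, and 13, 13 and 9 with array weights. Among the genes and comparisons named by rule, those that turned sign were, with full-length MED12, MED14 under quantile normalization (-0.035), array weights (-0.0552) and without the 3 narrow arrays (-0.21), POLR2G without those arrays (-0.068) and GTF2IRD1 under array weights (-0.023). With the shRNA they were GTF2H5 under array weights (0.24) and without the narrow arrays (0.092), GTF2IRD1 (-0.17) and TAF5L (0.049) without the narrow arrays, and POLR3B under array weights (-0.11). None of these differences had passed the test, and the cause was not tested. With 1 array left out at a time, some full-length differences crossed 0: MED14 ran from -0.21 to 0.28, POLR2G from -0.068 to 0.69, GTF2H5 from -0.65 to 0.063, GTF2IRD1 from -0.16 to 0.37, CDK19 from -0.17 to 0.034 and LEO1 from -0.19 to 0.015. With the PQL/Opa-deleted construct MED21 ran from -0.14 to 0.65, MED14 from -0.42 to 0.14, POLR2G from -0.11 to 0.64, GTF2IRD1 from -0.32 to 0.043 and CDK8 from -0.50 to 0.084. With the shRNA MED14 ran from -0.39 to 0.21, GTF2H5 from -0.85 to 0.051, GTF2IRD1 from -0.073 to 0.56 and MED13L from -0.16 to 0.38. Signal over background limits 18 members, which did not lie above the yardstick, and 3 arrays per group limit all of them.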

Other observations

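In 19 rows a symbol of these families is paired with other gene symbols, so no level can be assigned to 1 gene. They carry genes with no row of their own, such as MED10, MED27, POLR2I, POLR2J, TAF4, TAF6, TAF1C and GTF2H4, and also MED31 and TAF1, which have one. Of these rows 0 passed the limma test in any comparison. At an unadjusted p under 0.05 there were 2, both with the PQL/Opa-deleted construct against GFP and both on the high side. By limma, the row shared by POLR2J, a Pol II subunit, and its neighbours differed by 0.66 (adjusted p = 1.00), and one of the rows shared by POLR2I, a Pol II subunit that aids proofreading, by 0.45 (adjusted p = 1.00). The other POLR2I row differed by 0.16 there. The row shared by MED10, a middle subunit of Mediator, had the largest negative value with the shRNA, -0.48 (limma adjusted p = 0.996). No row carried the symbol of MED6, MED22, MED25, TAF3 or TAF4B, so they were not analysed here. The same held for GTF2H2, GTF2H2B, GTF2H2C and GTF2H2D of the TFIIH core list.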
